A study of Heterocephalus glaber and Mus musculus with 9 samples.

Results

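This report covers the genes of heterotrimeric G protein signalling in the spleen of the naked mole-rat (NM-R, Heterocephalus glaber) and of the mouse. The members are every gene of the normalized count table whose symbol begins with Rgs, Gpr and a digit, Gna, Gnb, Gng, Arrb or P2r, and there were 115 of them among 12946 genes. They comprised 20 RGS genes, 12 G alpha, 4 G beta and 12 G gamma subunits, 2 arrestins, 6 P2X channels, 7 P2Y receptors, 50 numbered Gpr genes, and Gnb1l and Gnb2l1, which carry the prefix but are no G protein subunits. Counted among the 20 are Rgs7bp and Rgs9bp, which encode binding partners of RGS proteins and not RGS proteins. The mouse annotation holds 170 protein-coding symbols of these forms, and 56 of them, among them Gnas, Gnai3, Gnb4, Rgs3, P2rx5 and P2ry10, were not in the table and were not analysed here.

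RNA was sequenced from 9 spleens, 1 library each. The 3 mice were wild type C57Bl/6N males aged 2 months. The 3 NM-Rs with small spleens (ssNM-R 2, 3 and 6) were males aged 30, 26 and 23 months, and of the 3 NM-Rs with enlarged spleens (lsNM-R 1, 4 and 5), aged 24, 29 and 23 months, lsNM-R 4 was female and the others male. The labels name no treatment. Species, age, genome annotation and gene length all differ between mouse and NM-R, and their parts in a difference between the species cannot be told apart.

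A G protein-coupled receptor that binds its ligand makes a G alpha subunit exchange GDP for GTP and part from its beta-gamma dimer, and both then act on enzymes and channels. RGS proteins speed up the hydrolysis of GTP and so end the signal, while arrestins uncouple the receptor and carry it into the cell. In the spleen these receptors guide leukocytes to follicles and zones, sense extracellular nucleotides and acid, and govern platelets and vascular tone. P2X proteins are not G protein-coupled: they are cation channels opened by ATP.

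All levels are normalized counts (the reads of a gene over the size factor of its library), given for the spleens in the order mouse 1, 2, 3, ssNM-R 2, 3, 6 and lsNM-R 1, 4, 5. Means are ± SD over 3 mice or 6 NM-Rs, folds are ratios of group means, and log2 fold changes are of the normalized count + 1, ± SE, from limma with p-values adjusted over all 12946 genes. The libraries held 7815326 to 18387599 reads (median 10965902), so that 1 read stood for a normalized count of 0.627 to 1.5. The tissue carried spleen markers in both species, but in unequal amounts. All 10 measured B cell markers were lower in NM-Rs (summed level 64553 to 66007 in mice, 3413 to 8620 in NM-Rs), as were all 11 T cell markers (12180 to 13343 and 3587 to 7046) and the 3 NK cell markers (940.2 to 999 and 96.6 to 231). The 9 erythroid markers were all higher (25211 to 71962 and 141721 to 209990), and the summed level was also higher for 6 megakaryocyte markers (5247 to 6597 and 16961 to 30141), 6 granulocyte markers (6329 to 8068 and 25882 to 44454) and 9 smooth muscle markers (8663 to 11865 and 20518 to 40520). The markers of other tissues summed to 319.8 to 515 in mice and 684 to 4417 in NM-Rs, highest in ssNM-R 6, where the liver gene Alb and the mesothelial gene Msln were highest. In bulk tissue, fewer cells of a type and less RNA per cell cannot be told apart.

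Between the species, 92 of the 115 genes passed the test, 41 higher and 51 lower in NM-R, including 4 with no read in mice and 2 with none in NM-R. Over all genes 78.5% passed, 39.7% higher and 38.8% lower, so the share among the signalling genes was close to that of the table. Their median log2 fold change was -0.20, against 0.0097 over all genes. The 9 spleens fell into 2 ranges that did not overlap for 85 of the 115, against 72.6% over all genes. Changes past a log2 value of 2 in size were seen for 17 higher and 27 lower of the 115 members. Of all 12946 genes, 1862 were higher and 1800 lower by as much (28.3% in either direction). Against the same mice, the ssNM-Rs had 39 members higher and 49 lower (75.5% of all genes passed, 38.0% and 37.5%), and the lsNM-Rs had 38 higher and 50 lower (75.0% passed, 38.1% and 37.0%). Of the members, 94 had a mean of at least 10 normalized counts over the 9 spleens and 62 a mean of at least 100.

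**Figure D1:**
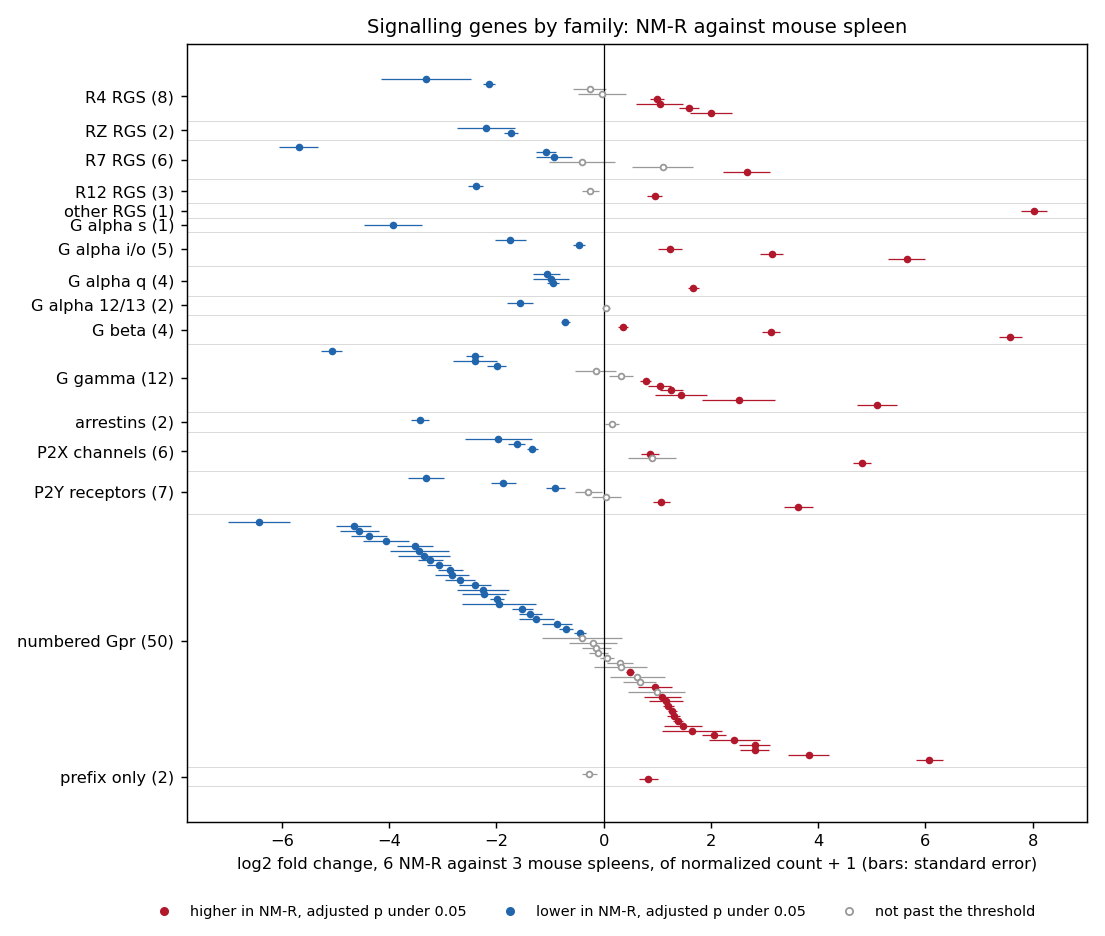
Each point is 1 of the 115 genes, with its log2 fold change between 6 NM-R and 3 mouse spleens on the x axis (normalized count + 1, bars are SE), grouped by family on the y axis with the number of genes. Filled red points were higher and filled blue points lower in NM-R (adjusted p under 0.05), and open grey points did not pass; every family with 4 or more genes held genes of both directions.

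Among the numbered Gpr genes, 16 were higher, 24 lower and 10 did not pass (median log2 fold change -0.30). Their share that passed, 80.0%, was near the 78.5% of all genes (39.7% higher and 38.8% lower). Receptors known from lymphocytes, grouped after their values had been seen, were among the lowest. Gpr174, a receptor for lysophosphatidylserine, had 1028, 989 and 1001 in mice, 6.84, 10.5 and 4.42 in ssNM-Rs and 41, 25.4 and 3.76 in lsNM-Rs. The level was 65.7-fold lower in NM-R (log2 fold change -6.43 ± 0.58, adjusted p = 3.55e-06), and no NM-R spleen came near a mouse spleen. Gpr18, a receptor of lymphocytes, had 864, 878 and 934 in mice, 30.1, 57 and 21.5 in ssNM-Rs and 57.9, 32.4 and 23.2 in lsNM-Rs, 24.1-fold lower (log2 fold change -4.66 ± 0.33, adjusted p = 6.27e-07). Gpr183, whose oxysterol ligand places B cells at the edge of follicles, had 971, 919.6 and 907 in mice, 94.4, 128 and 103 in ssNM-Rs and 234, 97.3 and 152 in lsNM-Rs, 6.92-fold lower (log2 fold change -2.86 ± 0.23, adjusted p = 1.71e-06). For Gpr183, as for Gpr18, lsNM-R 1 had the highest level of the 6 NM-R spleens, and the same spleen had the highest summed B and T cell markers (8620 and 7046). The other spleens did not all keep this order. Gpr174 was higher in lsNM-R 4 (B and T cell sums 4057 and 3890) than in lsNM-R 5 (4984 and 5425). Like the B and T cell markers given above, these receptors were lower in NM-R, and the part of those cells in the difference was not tested.

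The proton-sensing receptors Gpr4 and Gpr65, which signal at acid pH, were grouped after their values had been seen. Gpr65, found on leukocytes, fell from 1035 ± 38.9 to 207 ± 75.3 (log2 fold change -2.40 ± 0.30, adjusted p = 4.05e-05). Gpr4, found on endothelium, fell from 122 ± 13.9 to 56.7 ± 32.3 (log2 fold change -1.25 ± 0.34, adjusted p = 0.00615), and here the species did overlap, since ssNM-R 6 had 116 against 111 in mouse 2. Pecam1, Stab2, Vwf and 2 other of the 9 measured endothelial markers were also lower in NM-R, and 1 was higher; the part of the endothelium in the level of Gpr4 was not tested.

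Of the orphan receptors, Gpr153 had 358, 278 and 203 in mice, 13.7, 39 and 31.6 in ssNM-Rs and 24, 14.8 and 23.8 in lsNM-Rs, 11.4-fold lower (log2 fold change -3.52 ± 0.34, adjusted p = 5.82e-06). Gpr141 had 407, 327 and 324 in mice, 54.7, 49.5 and 26.5 in ssNM-Rs and 84.7, 85.3 and 46.4 in lsNM-Rs, 6.1-fold lower (log2 fold change -2.68 ± 0.28, adjusted p = 9.10e-06). Neither gene overlapped between species, although the NM-R levels themselves spread over a 3.21-fold range for Gpr141. Gpr33 (14, 20.7 and 38.8 in mice) and Gpr179 (4.01, 7.61 and 7.34) had no read in any of the 6 NM-R spleens. Counted against a floor of 3 reads over the 6 libraries, they were at least 54.7-fold and 14.1-fold lower, and 1.15% of all genes were at 0 in every NM-R library.

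Of the numbered Gpr genes that were higher in NM-R, Gpr161, an orphan receptor of the primary cilium that restrains Hedgehog signalling, had 35.1, 27.2 and 19.9 in mice, 118, 101 and 143 in ssNM-Rs and 87.6, 121 and 125 in lsNM-Rs, 4.23-fold higher (log2 fold change 2.06 ± 0.22, adjusted p = 1.40e-05). Gpr56, an adhesion receptor, had 722, 761 and 718 in mice, 2151, 1778 and 1891 in ssNM-Rs and 1504, 1764 and 1672 in lsNM-Rs, 2.44-fold higher (log2 fold change 1.28 ± 0.09, adjusted p = 5.05e-07). Gpr155, a cholesterol sensor of the lysosome, had 420.4, 392 and 386 in mice, 1145, 923 and 779 in ssNM-Rs and 982, 1165 and 981 in lsNM-Rs, 2.49-fold higher (log2 fold change 1.30 ± 0.12, adjusted p = 4.96e-06). In each of these genes the lowest NM-R spleen lay above the highest mouse. Gpr89b, which takes part in the acidification of the Golgi and is a receptor in name only, had 433, 401 and 457 in mice, 1176, 1259.6 and 1012 in ssNM-Rs and 1215, 1101 and 1010.2 in lsNM-Rs (log2 fold change 1.39 ± 0.10, adjusted p = 6.85e-07). Gpr108, a Golgi protein and the most abundant numbered Gpr gene over the 9 spleens, had 1051, 990.2 and 1026 in mice, 2526, 2713 and 2315 in ssNM-Rs and 2511, 1943 and 2241 in lsNM-Rs (log2 fold change 1.21 ± 0.10, adjusted p = 1.37e-06). Both again separated the species, by 2.62-fold and 2.32-fold. Gpr146, Gpr182, Gpr35 and Gpr176 did not pass, with log2 fold changes of -0.10, 0.06, -0.14 and 0.31.

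**Figure D2:**
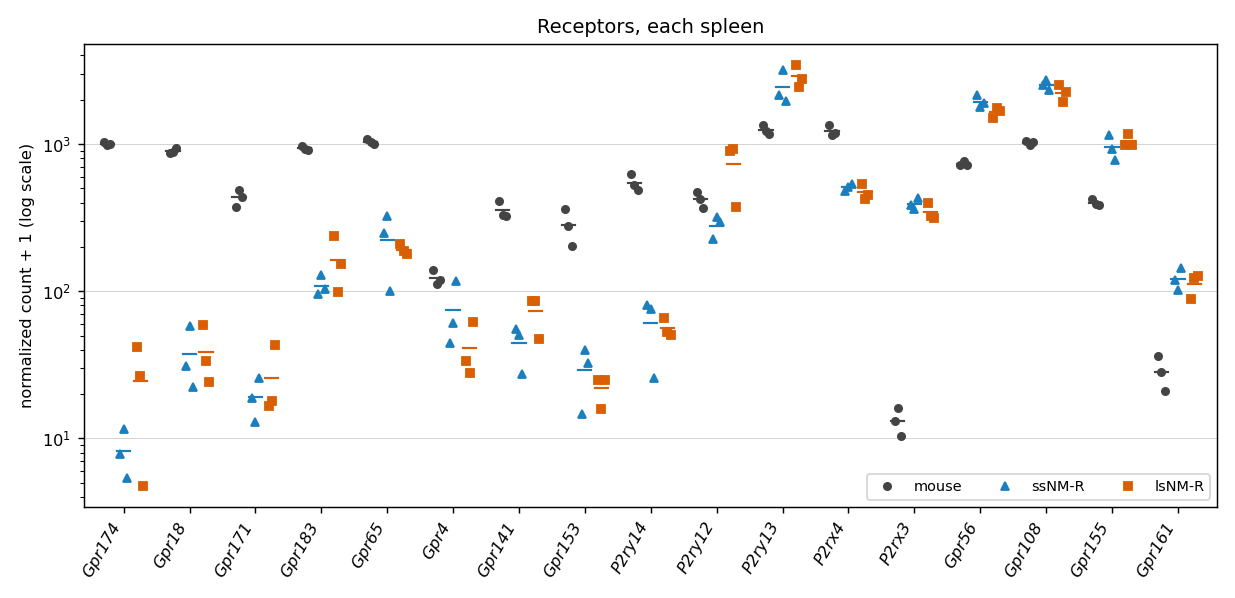
Normalized count + 1 (log scale) of 17 receptors and channels in each of 3 mouse, 3 ssNM-R and 3 lsNM-R spleens, with a line at each group mean. At the left, the lymphocyte and acid-sensing receptors were higher in mice, with an overlap for Gpr4, while P2rx3, Gpr56, Gpr108, Gpr155 and Gpr161 at the right were lower in mice, and P2ry12 separated the 2 NM-R cohorts.

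The purinergic receptors divided in a similar manner, with 2 of 6 P2X channels higher and 3 lower, and 2 of 7 P2Y receptors higher and 3 lower. Thus 83.3% of the P2X and 71.4% of the P2Y genes passed, against 78.5% of all genes. P2rx4, an ATP channel of macrophages and the most abundant P2X gene, had 1337, 1155 and 1182 in mice, 481, 509 and 533 in ssNM-Rs and 532, 424 and 448 in lsNM-Rs, 2.51-fold lower (log2 fold change -1.33 ± 0.10, adjusted p = 8.43e-07). P2rx7, the channel through which high ATP activates the inflammasome, fell from 738 ± 52.4 to 244 ± 60.5 (log2 fold change -1.62 ± 0.17, adjusted p = 8.64e-06). The summed macrophage markers lay at 51450 to 61716 in mice and 62001 to 92478 in NM-Rs. Of the 11 markers, 5 were higher (Siglec1, C1qa, C1qb, C1qc and Cd5l) and 5 lower (Adgre1, Marco, Cd163, Mertk and Csf1r). The part of macrophages in the levels of P2rx4 and P2rx7 was not tested. P2rx1, the ATP channel of platelets, rose from 313 ± 56.1 to 569.8 ± 103 (log2 fold change 0.86 ± 0.17, adjusted p = 9.47e-04). P2rx3, best known from sensory neurons, had 12, 15.2 and 9.44 in mice, 387, 363 and 427 in ssNM-Rs and 394, 324 and 312 in lsNM-Rs, 30.1-fold higher (log2 fold change 4.82 ± 0.17, adjusted p = 7.08e-09). In the mouse genome P2rx3 overlaps Ssrp1 on the opposite strand, whether counting used strand is not stated, and Ssrp1 was not analysed here, so reads of the pair could not be told apart.

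The receptor genes Gpr171, P2ry14, P2ry13 and P2ry12 lie in this order on mouse chromosome 3, all on the minus strand and all within Med12l, which runs on the plus strand. They were grouped after their values had been seen, and they did not move together. The 150 bases before the annotated start of each gene are shown because genes under one host gene differed in direction. They are from mm9, read 5′ to 3′ on the minus strand, with matches on either strand in capitals. The motifs searched were GAGGAA, the core bound by the ETS factor PU.1, and AGATAA, which is bound by the erythroid factor Gata1.
Gpr171, chr3:58905744-58905893: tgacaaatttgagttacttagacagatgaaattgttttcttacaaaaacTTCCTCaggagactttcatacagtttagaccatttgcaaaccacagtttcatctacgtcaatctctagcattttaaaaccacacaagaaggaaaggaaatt
P2ry14, chr3:58934547-58934696: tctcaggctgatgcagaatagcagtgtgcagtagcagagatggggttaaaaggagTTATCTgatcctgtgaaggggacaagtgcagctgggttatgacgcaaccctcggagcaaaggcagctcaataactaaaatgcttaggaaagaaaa
P2ry13, chr3:59014805-59014954: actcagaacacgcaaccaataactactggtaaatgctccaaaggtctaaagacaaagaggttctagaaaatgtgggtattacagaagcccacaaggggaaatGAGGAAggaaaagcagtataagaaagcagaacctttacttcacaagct
P2ry12, chr3:59066754-59066903: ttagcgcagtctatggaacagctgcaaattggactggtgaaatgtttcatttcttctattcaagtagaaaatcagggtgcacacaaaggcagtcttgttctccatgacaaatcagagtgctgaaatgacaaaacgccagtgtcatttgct
GAGGAA was found once before Gpr171 and once before P2ry13, AGATAA once before P2ry14, and neither before P2ry12. Among 22238 such windows of the annotation, 14.3% held GAGGAA and 4.98% held AGATAA.

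Gpr171, a receptor related to the P2Y family, had 375, 489 and 434 in mice, 17.8, 12 and 24.6 in ssNM-Rs and 15.5, 16.9 and 42 in lsNM-Rs, 20.1-fold lower in NM-R (log2 fold change -4.38 ± 0.33, adjusted p = 1.03e-06). P2ry14, the receptor for UDP-glucose, had 626, 527 and 483 in mice, 79.3, 75.1 and 24.6 in ssNM-Rs and 65, 51.5 and 49.5 in lsNM-Rs, 9.49-fold lower (log2 fold change -3.31 ± 0.33, adjusted p = 8.03e-06). Both genes at the left end of the array were thus lower in all 6 NM-Rs than in any mouse. P2ry13, an ADP receptor and the most abundant P2Y gene, had 1339, 1224 and 1163 in mice, 2159, 3196 and 1970.4 in ssNM-Rs and 3442, 2428 and 2779.8 in lsNM-Rs, 2.14-fold higher (log2 fold change 1.07 ± 0.16, adjusted p = 1.48e-04). P2ry12, the platelet ADP receptor, had 475, 419.6 and 365 in mice and did not differ past the threshold between the species (log2 fold change 0.05 ± 0.27, adjusted p = 0.879), but it differed between the cohorts, as described below. The host gene Med12l rose from 170.3 ± 34.9 to 1543 ± 479, and without a stated strand setting the share of its reads in the receptor genes was not tested.

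Among the G alpha subunits, 4 of 12 were higher and 7 lower in NM-R (median log2 fold change -0.70), so that 91.7% passed, against 78.5% of all genes. Gnai2, the main inhibitory subunit of leukocytes and per kilobase of exon the highest of all members in mice (4463 ± 173 normalized counts per kilobase), had 9639, 9442 and 10173 in mice, 6569, 7316 and 8459 in ssNM-Rs and 6739.9, 6236 and 7439.6 in lsNM-Rs. It was 1.37-fold lower (log2 fold change -0.46 ± 0.11, adjusted p = 0.00280). Gnai1, its paralog, had 35.1, 32.6 and 45.1 in mice, 280.3, 315 and 472 in ssNM-Rs and 264, 300.4 and 420.1 in lsNM-Rs, 9.1-fold higher (log2 fold change 3.13 ± 0.21, adjusted p = 4.65e-07). The neighbouring inhibitory subunits also parted: Gnao1 rose from 47.5 ± 10.9 to 114 ± 27.2 and Gnaz fell from 124 ± 33.2 to 37.8 ± 17.2. Gnat1, the transducin of rod photoreceptors, had 3 reads in the mice and 93.7 ± 17 normalized counts in NM-Rs, a ratio of 89.7 with a 95% counting interval of 30.7 to 435.

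Of the subunits that activate phospholipase C, Gnaq fell from 881 ± 123 to 435 ± 118 (log2 fold change -1.06 ± 0.25, adjusted p = 0.00263), Gna11 from 835 ± 116 to 433 ± 28.9 (log2 fold change -0.94 ± 0.11, adjusted p = 2.12e-05) and Gna14 from 61.3 ± 7.8 to 32.4 ± 11.1 (log2 fold change -0.98 ± 0.33, adjusted p = 0.0196); the call for Gna14 was lost without mouse 1 (adjusted p = 0.0705) or mouse 2 (0.0637). Gna15, their paralog of blood cells, had 221, 218 and 273 in mice, 852, 830.2 and 836 in ssNM-Rs and 742, 606 and 689 in lsNM-Rs, 3.2-fold higher (log2 fold change 1.67 ± 0.10, adjusted p = 2.62e-07). It was the 1 member of its class of 4 that rose. Gna13, which acts on the cytoskeleton through guanine nucleotide exchange factors, had 2868, 2896 and 2857 in mice, 2884, 2773 and 2589.7 in ssNM-Rs and 3215, 2919 and 3468 in lsNM-Rs and did not pass (log2 fold change 0.04 ± 0.08, adjusted p = 0.635). Gna12, the other subunit of that class, fell from 1995 ± 142 to 714 ± 302 (log2 fold change -1.56 ± 0.24, adjusted p = 1.82e-04). Among NM-Rs it was highest in ssNM-R 6 (1304, against 468 to 713 in the others), the spleen with the highest sums of smooth muscle (40520) and other-tissue markers (4417), whose part was not tested. Gnal, the olfactory stimulatory subunit and the 1 member of its class in the table, had 62.2, 38 and 34.6 in mice, 0, 6.01 and 1.9 in ssNM-Rs and 1.41, 2.12 and 3.14 in lsNM-Rs (log2 fold change -3.92 ± 0.54, adjusted p = 8.29e-05).

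Of the 4 G beta subunits, 3 were higher in NM-R and 1 was lower, while 78.5% of all genes passed in either direction. Gnb1, the most abundant, had 4694, 4528 and 4708 in mice, 6792, 6317 and 5769.6 in ssNM-Rs and 6118, 5741 and 5133 in lsNM-Rs, 1.29-fold higher (log2 fold change 0.36 ± 0.09, adjusted p = 0.00467). Gnb2 fell from 4738 ± 373 to 2892 ± 179.7 (log2 fold change -0.71 ± 0.08, adjusted p = 1.47e-05), with the narrowest spread among NM-Rs of any member with at least 50 normalized counts there (coefficient of variation 6.22%). Gnb5, the divergent beta subunit that binds RGS proteins of the R7 class, had 97.3, 78.3 and 75.5 in mice, 965, 863 and 669 in ssNM-Rs and 811, 659 and 525 in lsNM-Rs, 8.95-fold higher (log2 fold change 3.13 ± 0.17, adjusted p = 1.00e-07). Gnb3, a beta subunit of cone photoreceptors, had 1.0, 1.09 and 2.1 in mice and 645, 485 and 418 in ssNM-Rs and 476, 374 and 353 in lsNM-Rs (log2 fold change 7.58 ± 0.22, adjusted p = 1.86e-09). It rested on 4 mouse reads, so that the ratio of 329 had a 95% counting interval of 129 to 1208. In the mouse genome Gnb3 lies within 3 kb of Cdca3, a gene of cell division on the opposite strand, which rose from 850.3 ± 373 to 1942 ± 200; its part in the reads of Gnb3 was not tested.

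The 12 G gamma subunits held 6 genes that were higher and 4 that were lower (83.3% passed, against 78.5% of all genes). Gngt2, the gamma subunit of cone transducin that leukocytes also use, had 1213, 1074 and 1060.2 in mice, 26, 43.5 and 31 in ssNM-Rs and 38.1, 28.2 and 28.8 in lsNM-Rs, 34.2-fold lower (log2 fold change -5.07 ± 0.19, adjusted p = 1.02e-08). It overlaps Abi3 on the opposite strand, and Abi3 fell less, from 1519 ± 89.9 to 331 ± 45.1. Gng12 had 834, 693 and 668 in mice, 105, 122 and 166 in ssNM-Rs and 147, 128 and 164 in lsNM-Rs, 5.29-fold lower (log2 fold change -2.41 ± 0.16, adjusted p = 4.30e-07), and Gng2 fell from 1210.5 ± 101 to 308 ± 70 (log2 fold change -2.0 ± 0.18, adjusted p = 4.10e-06). Among the genes that rose, Gng5 had 557, 643 and 655 in mice, 1039, 1024 and 1161 in ssNM-Rs and 901, 1070.4 and 1206 in lsNM-Rs, 1.72-fold higher (log2 fold change 0.78 ± 0.11, adjusted p = 8.08e-05). Gng10 (log2 fold change 1.04 ± 0.21, adjusted p = 0.00113) and Gng11 (log2 fold change 1.26 ± 0.21, adjusted p = 3.23e-04) rose as well, both with their highest level in lsNM-R 5. Gng3, a gamma subunit of neurons, had 1.0, 3.26 and 4.19 in mice, 79.3, 135 and 170.0 in ssNM-Rs and 147, 79.7 and 139.8 in lsNM-Rs, 44.4-fold higher (log2 fold change 5.10 ± 0.37, adjusted p = 7.75e-07). It overlaps Bscl2 on the opposite strand, and Bscl2 moved the other way, from 871 ± 11.7 to 56.5 ± 8.78.

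**Figure D3:**
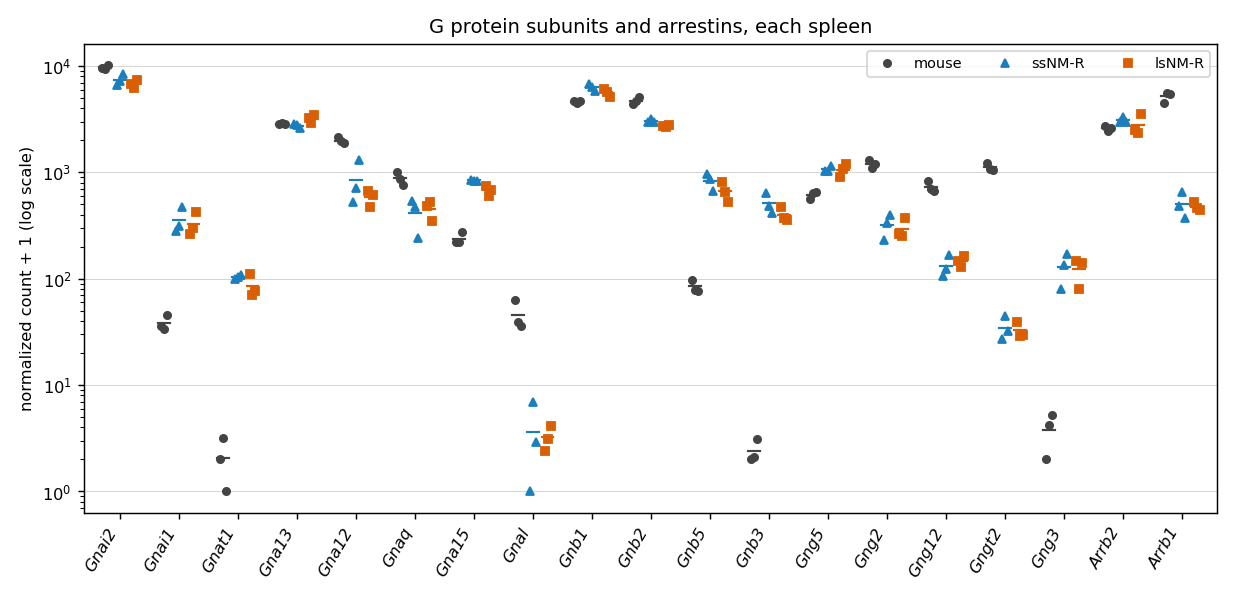
Normalized count + 1 (log scale) of 19 G protein subunits and arrestins in each spleen, with a line at each group mean. Mouse and NM-R points changed places within families: Gnai1, Gna15, Gnb5, Gnb3 and Gng3 were higher in NM-R, and Gna12, Gng12, Gngt2, Gnal and Arrb1 were lower, while Gna13 and Arrb2 overlapped.

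Arrb1 and Arrb2, the arrestins that serve receptors outside the eye, parted between the species. Arrb1 had 4537, 5608 and 5450.0 in mice, 479, 659 and 370.3 in ssNM-Rs and 523, 458 and 438 in lsNM-Rs, 10.7-fold lower (log2 fold change -3.43 ± 0.16, adjusted p = 4.77e-08). Arrb2 had 2746, 2472 and 2623 in mice, 2969, 3342 and 2957 in ssNM-Rs and 2518, 2364 and 3511 in lsNM-Rs, and did not pass (log2 fold change 0.16 ± 0.13, adjusted p = 0.265). Per kilobase of exon, Arrb2 was the higher arrestin in mice as well, at 918.7 ± 48.3 against 465 ± 51.8 normalized counts per kilobase; NM-R gene lengths were not analysed here. The ratio of Arrb1 to Arrb2, which needs no size factor, was 1.65 to 2.27 in mice and 0.125 to 0.208 in NM-Rs.

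Ratios within 4 other pairs of paralogs were taken after their values had been seen and are given as a description, uncorrected for gene length. Gnb1 to Gnb2 was 0.984 ± 0.0784 in mice and 2.07 ± 0.172 in NM-Rs. Gnai1 to Gnai2 was 0.00384 ± 0.000519 and 0.0476 ± 0.00724, so that Gnai2 remained the larger count by far. Gna12 to Gna13 was 0.694 ± 0.0495 and 0.248 ± 0.13, and Gna15 to Gnaq 0.275 ± 0.0715 and 1.92 ± 0.819. The 2 species did not overlap in any of the 5 ratios, and the 2 NM-R cohorts overlapped in all of them.

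**Figure D4:**
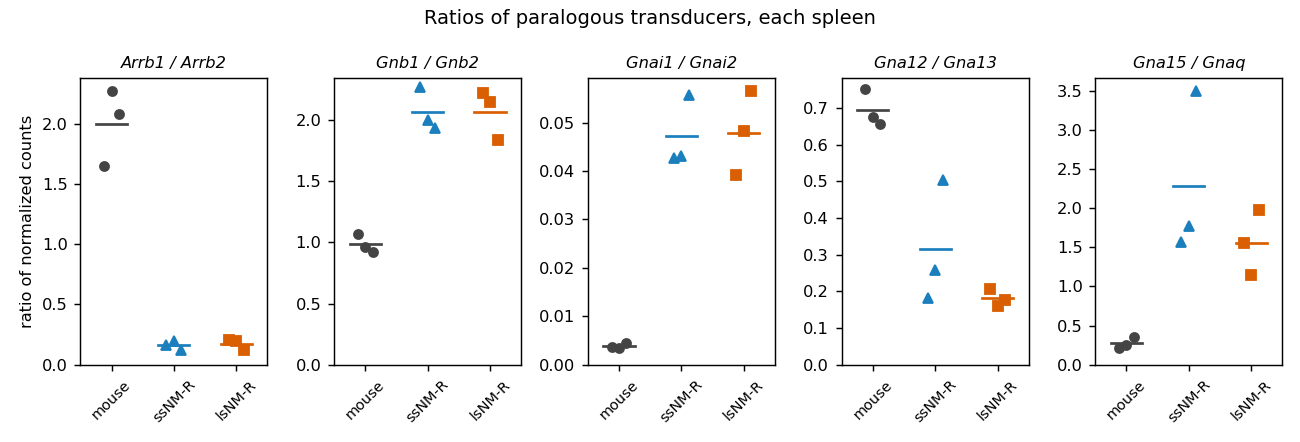
Ratio of normalized counts of 5 pairs of paralogs in each spleen (linear axes from 0), with a line at the mean of each group of 3. NM-R ratios lay below mouse for Arrb1 to Arrb2 and Gna12 to Gna13 and above mouse for the other 3 pairs.

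Among the RGS genes, with Rgs7bp and Rgs9bp counted, 7 of 20 were higher in NM-R, 8 lower and 5 did not pass (median log2 fold change -0.25). The 75.0% that passed was near the 78.5% of all genes (39.7% higher and 38.8% lower). In the R4 class, the small RGS proteins, Rgs2, which acts on Gq, had 1740.0, 1547 and 1672 in mice, 271, 297 and 276 in ssNM-Rs and 424, 496 and 585 in lsNM-Rs, 4.22-fold lower (log2 fold change -2.14 ± 0.11, adjusted p = 6.95e-08). Rgs1, which blunts the response of B and T cells to chemokines, had 441, 479 and 447 in mice, 24.6, 15 and 54.3 in ssNM-Rs and 49.4, 16.2 and 462 in lsNM-Rs. Thus 5 NM-R spleens lay far below the mice and lsNM-R 5 lay among them; the log2 fold change was -3.32 ± 0.84 (adjusted p = 0.00454), and -3.98 without lsNM-R 5. Rgs5, a gene of pericytes, had 164, 138 and 161 in mice, 343, 379.8 and 467 in ssNM-Rs and 631, 378 and 703 in lsNM-Rs, 3.13-fold higher (log2 fold change 1.59 ± 0.19, adjusted p = 3.26e-05). Rgs16 had 35.1, 19.6 and 43 in mice, 198, 246 and 93.5 in ssNM-Rs and 60.7, 156 and 98.5 in lsNM-Rs, 4.37-fold higher (log2 fold change 2.01 ± 0.39, adjusted p = 8.97e-04). Both were higher in every NM-R than in any mouse, with Rgs16 spread over a 4.05-fold range among NM-Rs. Rgs18, known from platelets, rose from 334 ± 26.9 to 678 ± 173 (log2 fold change 0.99 ± 0.13, adjusted p = 6.78e-05) beside the higher megakaryocyte markers, whose part was not tested.

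In the RZ class both members were lower. Rgs19, which binds inhibitory subunits, had 1413, 1354 and 1326 in mice, 377, 491 and 348 in ssNM-Rs and 504, 403 and 373 in lsNM-Rs, 3.28-fold lower (log2 fold change -1.73 ± 0.13, adjusted p = 1.06e-06). Of the R12 class, Rgs10, known from platelets and macrophages, had 620.1, 707 and 736 in mice, 1434, 1111 and 1375 in ssNM-Rs and 1213, 1709 and 1205 in lsNM-Rs, 1.95-fold higher (log2 fold change 0.95 ± 0.14, adjusted p = 1.04e-04). Rgs12 moved the other way, from 797 ± 160.1 to 150.3 ± 13.3 (log2 fold change -2.38 ± 0.14, adjusted p = 2.06e-07), and Rgs14 did not pass (log2 fold change -0.25 ± 0.16, adjusted p = 0.186; 0.0413 without ssNM-R 3). The R7 class, whose proteins need Gnb5, did not follow the rise of Gnb5 as a group. Rgs6 rose from 7.7 ± 1.84 to 60.3 ± 33 (log2 fold change 2.67 ± 0.43, adjusted p = 2.61e-04), Rgs11 fell from 83 ± 7.96 to 39 ± 5.25 (log2 fold change -1.08 ± 0.18, adjusted p = 3.73e-04), and Rgs7 did not pass (-0.40 ± 0.62). Rgs9, the R7 protein of phototransduction and the striatum, had 107, 93.5 and 70.3 in mice, 38.3, 36 and 56.2 in ssNM-Rs and 52.3, 28.2 and 89 in lsNM-Rs (log2 fold change -0.92 ± 0.33, adjusted p = 0.0282). Its species overlapped in lsNM-R 5, and the call was lost without mouse 1 (adjusted p = 0.111), mouse 2 (0.0834) or ssNM-R 3 (0.0539). Rgs7bp, a membrane anchor of this class, had 78.3, 56.5 and 44 in mice and 2 reads in 1 of the 6 NM-R spleens, a ratio of 199.7 with a 95% counting interval of 55.3 to 1649.

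**Figure D5:**
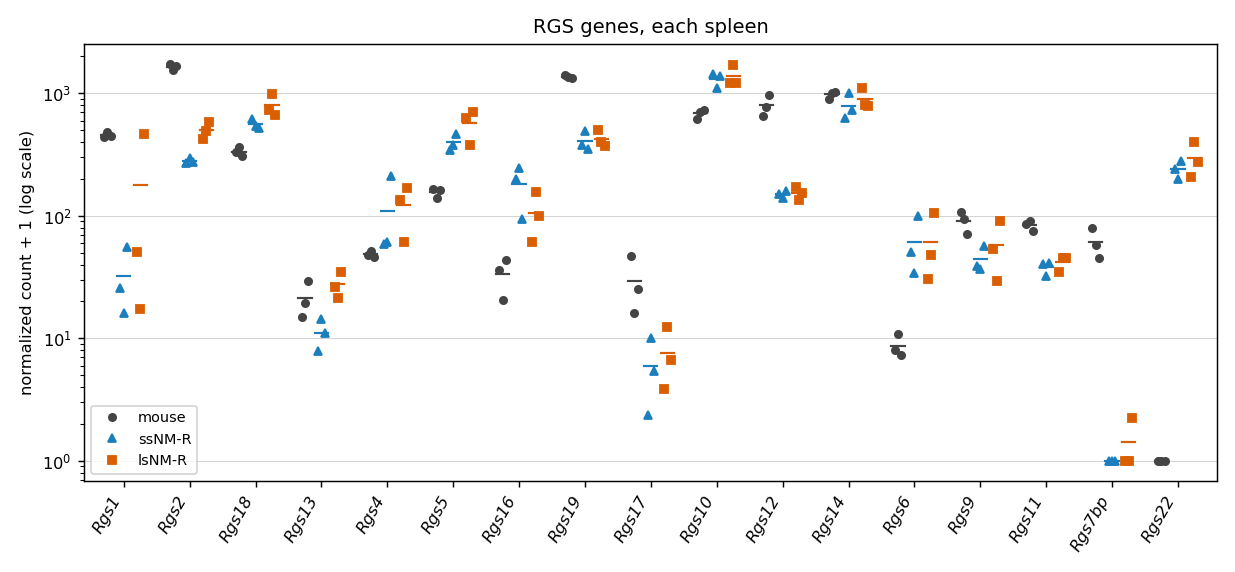
Normalized count + 1 (log scale) of 17 RGS genes in each spleen, with a line at each group mean. Rgs1 in lsNM-R 5 lay with the mice, Rgs2 was lower in NM-R but higher in lsNM-Rs than in ssNM-Rs, and Rgs22 had no mouse read.

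Of the members, 4 had no read in any mouse library, and 2.71% of all genes did. The genes are all annotated in mm9. Rgs22, an RGS protein known from testis, had 241, 199.7 and 280.0 in ssNM-Rs and 208, 398 and 274 in lsNM-Rs. P2ry4, a receptor for UTP, had 10.9, 9.01 and 10.7 in ssNM-Rs and 15.5, 9.87 and 13.2 in lsNM-Rs, and Gngt1, the gamma subunit of rod transducin, had 0, 4.5 and 11.4 in ssNM-Rs and 4.24, 10.6 and 7.52 in lsNM-Rs. Rgs22 thus stood well above a few reads per library, and P2ry4 and Gngt1 did not. Against a floor of 3 reads over the 3 mouse libraries they were at least 255-fold (Rgs22), 11.0-fold (P2ry4) and 6.09-fold (Gngt1) higher in NM-R. Whether the annotated mouse and NM-R gene models cover the same exons was not tested.

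Of the 2 genes that share only a prefix, Gnb2l1, a scaffold of the ribosome also called Rack1, had 20127, 22703 and 23779.9 in mice, 23270.2, 19760.1 and 18056 in ssNM-Rs and 19693, 16072 and 14938 in lsNM-Rs, and did not pass (log2 fold change -0.26 ± 0.14, adjusted p = 0.109). Gnb1l rose from 71.3 ± 8.23 to 129 ± 19.6 (log2 fold change 0.84 ± 0.18, adjusted p = 0.00146).

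Within the NM-R, species and annotation are shared, but lsNM-R 4 was the only female, and the part of sex was not tested. No member passed the test between lsNM-R and ssNM-R at an adjusted p of 0.05 (lowest 0.429, limma), and 0 of the 12946 genes did. At an unadjusted p under 0.05 there were 8 higher and 5 lower members, where 8.79% of all genes had such a p (5.24% and 3.55%). The 3 lsNM-Rs and 3 ssNM-Rs did not overlap for 7 members that were higher and 5 that were lower in lsNM-R, against 13.1% of all genes (6.84% and 6.23%). edgeR called 0 genes, and DESeq2 called 57 (0.440%), among them 2 members, Rgs2 and P2ry12.

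Rgs2 was higher in all 3 lsNM-Rs, at 501 ± 80.8 against 281 ± 14 in ssNM-Rs (SD, n = 3 each), 1.78-fold (log2 fold change 0.82 ± 0.13, unadjusted p = 7.77e-05, adjusted p = 0.429 in limma), with an adjusted p of 6.58e-05 in DESeq2. Leaving out 1 spleen at a time, its log2 fold change stayed between 0.70 and 0.94. P2ry12 was likewise higher, at 731 ± 313 against 279 ± 48.3, 2.63-fold (log2 fold change 1.29 ± 0.32, unadjusted p = 0.00236, adjusted p = 0.442 in limma), with an adjusted p of 0.00808 in DESeq2. The height of P2ry12 lay in lsNM-R 1 and 4, at 893 and 930.1, and lsNM-R 5 had 371 against 317 in the highest ssNM-R. The summed megakaryocyte markers were 22262, 30141 and 16961 in lsNM-R 1, 4 and 5 and 21257 to 24311 in ssNM-Rs. These sums and P2ry12 did not keep the same order over the NM-Rs. The sum of lsNM-R 1 lay within the range of the ssNM-Rs, while its P2ry12 was above theirs. In lsNM-R 5 the sum was the lowest of all NM-Rs, while P2ry12 was above that of every ssNM-R. The 6 granulocyte markers summed to 25882 to 34244 in ssNM-Rs and 34297 to 44454 in lsNM-Rs, ranges that lay close but did not overlap. Ltf, S100a9, Padi4 and Cebpe had higher means in lsNM-Rs. Mpo and Mmp9 had lower means in lsNM-Rs (3567 and 1326) than in ssNM-Rs (4384 and 2355). The part of either cell type in the differences between the cohorts was not tested.

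Other members with a small p between the cohorts did not pass with any of the 3 tools, though DESeq2 gave no adjusted p for Rgs13. Rgs18 had 560.1 ± 51.4 in ssNM-Rs and 797 ± 174 in lsNM-Rs (log2 fold change 0.49 ± 0.15, unadjusted p = 0.0102, adjusted p = 0.445 in limma), highest in lsNM-R 4 (995). Rgs13, a gene of mast cells and germinal centre B cells, had 6.84, 13.5 and 10.1 in ssNM-Rs and 25.4, 20.4 and 33.9 in lsNM-Rs, with 14, 18.5 and 28.3 in mice (log2 fold change 1.32 ± 0.36, unadjusted p = 0.00447, adjusted p = 0.442 in limma). Gpr83 had 4.1, 6.01 and 3.79 in ssNM-Rs and 9.89, 9.17 and 8.15 in lsNM-Rs, with 61.2, 67.4 and 79.7 in mice (log2 fold change 0.85 ± 0.27, unadjusted p = 0.0109, adjusted p = 0.454 in limma). These genes did not overlap between the cohorts, though Gpr83 stood at about 10 normalized counts or fewer in every NM-R. In the lower direction, Gna15 had 839 ± 11.2 in ssNM-Rs and 679 ± 68.5 in lsNM-Rs (log2 fold change -0.31 ± 0.12, unadjusted p = 0.0286, adjusted p = 0.534 in limma). Gpr107, a Golgi protein, had 1849, 1787 and 1821 in ssNM-Rs and 1507, 1665 and 1529 in lsNM-Rs, with 1305, 1121 and 1178 in mice (log2 fold change -0.22 ± 0.09, unadjusted p = 0.0376, adjusted p = 0.549 in limma).

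Genes that act with the members in the G protein cycle, its effectors and purine metabolism were counted from a list of 58, of which 47 were measured: 14 were higher in NM-R, 24 lower and 9 did not pass (median log2 fold change -0.55). The share that passed was 80.9%, near the 78.5% of all genes (39.7% higher and 38.8% lower). Among the adenylyl cyclases, Adcy5 had 376, 392 and 308 in mice, 3380.4, 3139 and 3839 in ssNM-Rs and 2710.4, 2414 and 3579 in lsNM-Rs (log2 fold change 3.13 ± 0.14, adjusted p = 2.63e-08), whereas Adcy1 had 298, 219.6 and 133 in mice, 0, 4.5 and 1.9 in ssNM-Rs and 4.24, 2.12 and 0 in lsNM-Rs (log2 fold change -6.36 ± 0.63, adjusted p = 7.02e-06). The 2 cyclases thus went in opposite directions, and Adcy7, the cyclase of blood cells, fell from 5499.9 ± 340.1 to 894 ± 217 (log2 fold change -2.66 ± 0.21, adjusted p = 1.24e-06). Of the cAMP effectors, Pde7a, a phosphodiesterase of lymphocytes, had 2274, 2275 and 2172 in mice, 103, 135 and 126 in ssNM-Rs and 201, 183 and 171 in lsNM-Rs (log2 fold change -3.90 ± 0.11, adjusted p = 1.82e-09). Rapgef4, a cAMP-gated exchange factor, had 493, 435 and 444 in mice, 21.9, 36 and 34.1 in ssNM-Rs and 48, 36 and 45.8 in lsNM-Rs (log2 fold change -3.63 ± 0.20, adjusted p = 1.00e-07). Both were over 10-fold lower in NM-R, by 14.6-fold and 12.4-fold.

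The receptor kinases, which prepare receptors for arrestin, also parted. Grk5 had 529.8, 476 and 405 in mice, 990.0, 1159 and 1774 in ssNM-Rs and 1182, 988 and 1287 in lsNM-Rs, 2.62-fold higher (log2 fold change 1.36 ± 0.18, adjusted p = 5.44e-05), while Grk2 fell from 9936 ± 319.6 to 2924 ± 273 (log2 fold change -1.77 ± 0.10, adjusted p = 1.15e-07) and Grk3 from 2319 ± 474 to 428 ± 58.4 (log2 fold change -2.43 ± 0.14, adjusted p = 1.80e-07). On the way from ATP to adenosine, the ATP release channel Panx1 had 434, 514 and 502 in mice, 38.3, 42 and 36 in ssNM-Rs and 67.8, 54.3 and 46.4 in lsNM-Rs (log2 fold change -3.35 ± 0.16, adjusted p = 4.87e-08). Entpd1 (CD39), which removes phosphates from ATP and ADP, fell from 1249.9 ± 102 to 692 ± 140.3 (log2 fold change -0.88 ± 0.12, adjusted p = 9.16e-05). Nt5e (CD73), which makes adenosine from AMP, had 430.5, 376 and 359.7 in mice, 1377, 1218 and 1233 in ssNM-Rs and 1017, 1130.3 and 1364 in lsNM-Rs, 3.15-fold higher (log2 fold change 1.65 ± 0.11, adjusted p = 4.03e-07). Of the adenosine receptors, Adora3 had 41.1, 48.9 and 15.7 in mice, 131, 215 and 70.8 in ssNM-Rs and 179, 149 and 129 in lsNM-Rs (log2 fold change 2.08 ± 0.40, adjusted p = 8.58e-04), and Adora2a, the main receptor of leukocytes, did not pass (0.08 ± 0.18).

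All comparisons between the species rest on counts that are not divided by gene length, and 30 members overlap another protein-coding gene in mm9, 26 of them on the opposite strand.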

How the data were processed

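The deposited signal values are read counts that the authors divided by DESeq2 size factors, without a correction for gene length. According to the study's methods and the submitters' processing notes, STAR 2.5.3a aligned each species' reads to its own genome (mm9 for the mouse), HTSeq 0.10.0 counted them, and NM-R genes were given mouse names through biomaRt. Whether counting used strand is not given in the sources used here, and the methods and the labels differ in the RNA kit and sequencer.

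In each library 100% of values were whole multiples of 1 step (tolerance 1e-06), which gave the reads: 10441982 to 11180912 in mice, 7815326 to 18219644 in ssNM-Rs and 8327759 to 18387599 in lsNM-Rs. The log2(normalized count + 1) values of all 9 spleens were fitted in limma 3.58.1 (R 4.3.3) with 1 mean per group, a trended variance and 2-sided tests, with Benjamini-Hochberg adjustment over 12946 genes and a threshold of 0.05. edgeR 4.0.16 and DESeq2 1.42.0 were run on the recovered reads as alternatives, and the scripts were tested on simulated data. The other alternatives were pseudocounts of 0.5 and 5, a minimum mean of 10, 3 other scalings, no trend, only the compared groups, a replicate block, genes at 0 in a whole species left out, and each spleen left out.

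Members, families and lists were chosen with earlier results of these data known. Values in every spleen are given for the 12 highest and 12 lowest members with a mean of at least 100 in the species where they were higher, the 8 with the smallest p between cohorts, those at 0 in mice and the most abundant of each family, and for 4 partners in each direction; genes named beyond these belong to the families described. A few genes that this rule takes are not reported here. Coordinates, strands and exonic lengths are from the mm9 annotation, which held 114 of the 115 symbols, all but Gpr89b. Marker genes were summed with no test. Intervals are exact Poisson at 95% and, like floors, cover counting error only.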

Additional observations from a re-analysis of the deposited data

Results flagged for a closer look

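Of the 45 members given with values in every spleen, 1 had 1 of the 6 NM-R spleens far from the others, by the gap to the nearest spleen over the whole range (limit 0.625); chance flags about 1 in 20 groups. Rgs1, which blunts chemokine responses of lymphocytes, had 462 in lsNM-R 5 and 15 to 54.3 in the other 5 spleens, with a gap of 0.912 of the range. It was the 1 gene of the table that in lsNM-R 5 exceeded 5 times the level of every other NM-R spleen (with 5 added to the level).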

How the results depend on the processing

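Over 116 results and 2363 values under other settings, counts of members higher and lower between NM-R and mouse stayed within 1.5 times of those reported: 35 to 43 higher and 43 to 52 lower, and for the partners 12 to 14 and 23 to 26. The count that moved was that of members higher in lsNM-R than in ssNM-R, which was 2 with DESeq2 and 0 under the other settings. Between the species, no named gene past the threshold changed sign. Of those that did not pass, log2 fold changes turned to -0.0102 (Gna13) and -0.00557 (P2ry12) with each spleen scaled to the same total, to 0.0105 (Gpr146) with the same upper quartile, and to 0.0541 (Gpr146), 0.181 (Gpr35) and -0.0468 (Gpr176) with the replicate block. Leaving out 1 spleen, they ran from -0.0675 to 0.264 for P2ry12, -0.176 to 0.0113 for Gpr146, -0.275 to 0.0291 for Gpr35, -0.0510 to 0.192 for Adora2a and -0.645 to 0.0730 for Rgs7; the cause was not tested. Calls were lost for Rgs9 with the same upper quartile (adjusted p = 0.0521) and without mouse 1, mouse 2 or ssNM-R 3, and for Gna14 without mouse 1 or mouse 2. They were gained for Rgs14 without ssNM-R 3 and for Gnb2l1, which was lower with the same total (0.041) or quantile normalization (7.68e-04). Scaling to the same upper quartile moved the species difference of the median gene from 0.0097 to 0.114, and relative to it the 74 named genes past the threshold all had the direction reported. Replicate numbers are shared by 3 pairs of a mouse and an NM-R spleen only. Deviations from the group mean did not correlate within these pairs (r = 0.010, -0.0045 and 0.00076). Correlations over all genes in 3 pairs cannot exclude a preparation shared under the same number, and the main fit assumed no pairing. With the number as a replicate block, 39 members were higher and 49 lower, none passed between cohorts, Gngt1 (adjusted p = 0.0521) and Gna14 (0.0875) missed the threshold, and Adora2a passed it (0.0261); the cause was not tested. The cohorts share no number, so that under the block lsNM-R 1 is set against ssNM-R 2 and 3 through the mice alone: the cohort difference was then 0.46 for Rgs2, 1.98 for Rgs13, -0.04 for Gna15 and -0.45 for Gpr107. DESeq2 gave no adjusted p for Rgs1 between the species or Rgs13 between the cohorts. Genes of few reads are limited by depth: 21 members had a mean under 10.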
